A study of Homo sapiens with 6 samples.

Results

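The genes described here are 10 genes of the machinery that makes and uses small regulatory RNAs: the Argonautes *AGO1*, *AGO2*, *AGO3* and *AGO4*, the GW182 proteins *TNRC6A*, *TNRC6B* and *TNRC6C*, the nucleases *DICER1* and *DROSHA*, and the Dicer partner *TARBP2*. They were chosen by gene symbol, which gave 10 rows among the 60663 genes of the deposited count table, and all 10 were among the 16920 genes with enough reads to be tested. CCD18Co cells, an established line of normal human colon fibroblasts, received siRNA directed at *LTBP2* (siLTBP2) or non-targeting siRNA (siNT) for 6 h by lipofection, and total RNA came from cells frozen 48 h later. There were 3 libraries of each. Both groups received siRNAs and the same transfection reagent, so the comparison is between 2 siRNA treatments of 1 line, with 1 siRNA product in each, and untransfected cells were not analysed here. The labels do not say that libraries of one group came from separate cultures, so the p-values measure only the spread between these libraries, which may be technical.

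The libraries held between 44663424 and 53576899 reads counted on genes. The targeted gene, *LTBP2*, averaged 23.1 ± 1.89 CPM (reads scaled to library size) under siNT and 7.03 ± 1.39 CPM under siLTBP2 (SD, n = 3). All 9 fibroblast markers were above 1 CPM in every library. Of 5 immune markers 0 reached 1 CPM, and of 4 endothelial markers *VWF* alone did, in 5 of 6 libraries. The epithelial list of 7 genes reached 1 CPM only for *KRT8* and *KRT18*, and its summed level lay between 42.2 and 53.0 CPM in siNT and between 85.0 and 96.8 CPM in siLTBP2, while the defining epithelial genes *EPCAM* and *CDH1* had at most 2 reads in any library. The part of these keratins in the results was not tested. As these are bulk libraries, a lower level in every cell and fewer expressing cells cannot be told apart.

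In the small RNA pathway, DROSHA cuts hairpins out of primary microRNA transcripts in the nucleus, and DICER1, with a double-stranded RNA binding partner such as TARBP2, trims them in the cytoplasm to short duplexes. One strand of the duplex is loaded into an Argonaute, which finds target mRNAs by pairing with the bases near the 5′ end of the guide, the seed. An Argonaute then recruits a TNRC6 protein, which brings in the deadenylases that shorten the poly(A) tail of the target. Synthetic siRNAs such as those used here enter the same pathway at the loading step, and AGO2 is the human Argonaute known for cutting fully paired targets.

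The 3′ UTRs of the genes were searched on the sense strand for the 7-base word GCACCCA, because in an earlier search of these same libraries the genes with this word were lower in siLTBP2 as a group. It is shown here as a description of the sequences, not as a test. Among 12311 tested coding genes whose 3′ UTR in GENCODE 44 spans 50 bases or more, 11.8% held it, and the share was 13.2% among 10745 UTRs in the length range of the 10 genes (283 to 16755 bases). The 10745 UTRs had a median length of 1631 bases, and those of *AGO2* and *TNRC6B* span 11888 and 12567 bases. The 13.2% is thus not matched to the length of these 2. Of the 10 genes, *AGO2* held 1 copy and *TNRC6B* 2 copies, and the other 8 held none. Beyond these 10, *LTBP2* and the 10 partner genes that passed the test described further on were searched, and no other partner gene was. Of those, *PRKRA*, *TOB2*, *CNOT6* and *LTBP2* held the word. As these partner genes were picked because they passed the test, their share with the word cannot be set against the 11.8%. The sites of these genes and of *TNRC6B* are printed with 10 bases on each side, read 5′ to 3′ along the mRNA in GRCh38, with the word in capitals, and the site of *AGO2* is not printed here.
*TNRC6B*, chr22:40329663-40329689, plus strand: cagcagctcaGCACCCAcactgcccgc
*TNRC6B*, chr22:40333828-40333854, plus strand: ctagatttggGCACCCAtgaagcaggg
*PRKRA*, chr2:178431846-178431872, minus strand: agagagtgtaGCACCCAttttacagtg
*TOB2*, chr22:41436268-41436294, minus strand: ggggccaggaGCACCCAagaccacaga
*TOB2*, chr22:41436128-41436154, minus strand: gccctgcaaaGCACCCAagtgtgtttc
*TOB2*, chr22:41434324-41434350, minus strand: acacacacagGCACCCAcccacaccag
*CNOT6*, chr5:180576964-180576990, plus strand: aagtttgaagGCACCCAaatccttgtc
*LTBP2*, chr14:74500045-74500071, minus strand: atgggatacaGCACCCAtctacaaaga
These lines differ outside the word, and no line is longer than a single site. The 3′ UTRs of *TNRC6C* and *AGO1* span 3977 and 10925 bases and lack the word. These 2 genes are named because they had the lowest fold changes of the 10. Whether the word had a part in the levels of any of the 10 was not tested here, so no conclusion is drawn.

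At an adjusted p below 0.05 (edgeR's quasi-likelihood test, Benjamini-Hochberg over all 16920 genes), 5 of the 10 genes differed between siLTBP2 and siNT, and 19.3% of all tested genes did. *AGO2*, *DICER1*, *TNRC6A* and *TNRC6B* were higher in siLTBP2, as 9.76% of all tested genes were, and *TNRC6C* was lower, as 9.51% were. None of the 10 passed the stricter rule of an adjusted p below 0.01 with a fold change above 2, which 2.57% of all genes passed. The groups did not overlap in 5 of the 10 genes, namely *AGO1*, *AGO2*, *DICER1*, *TNRC6A* and *TNRC6C*, against 37% of all tested genes. The median log2 fold change of the 10 was 0.08, and their median size of change, without sign, was 0.38 on the log2 scale, where all tested genes had 0.23. The 10 genes were chosen with earlier results of these data known. These values are therefore descriptions and cannot show an excess over all tested genes.

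**Figure D1:**
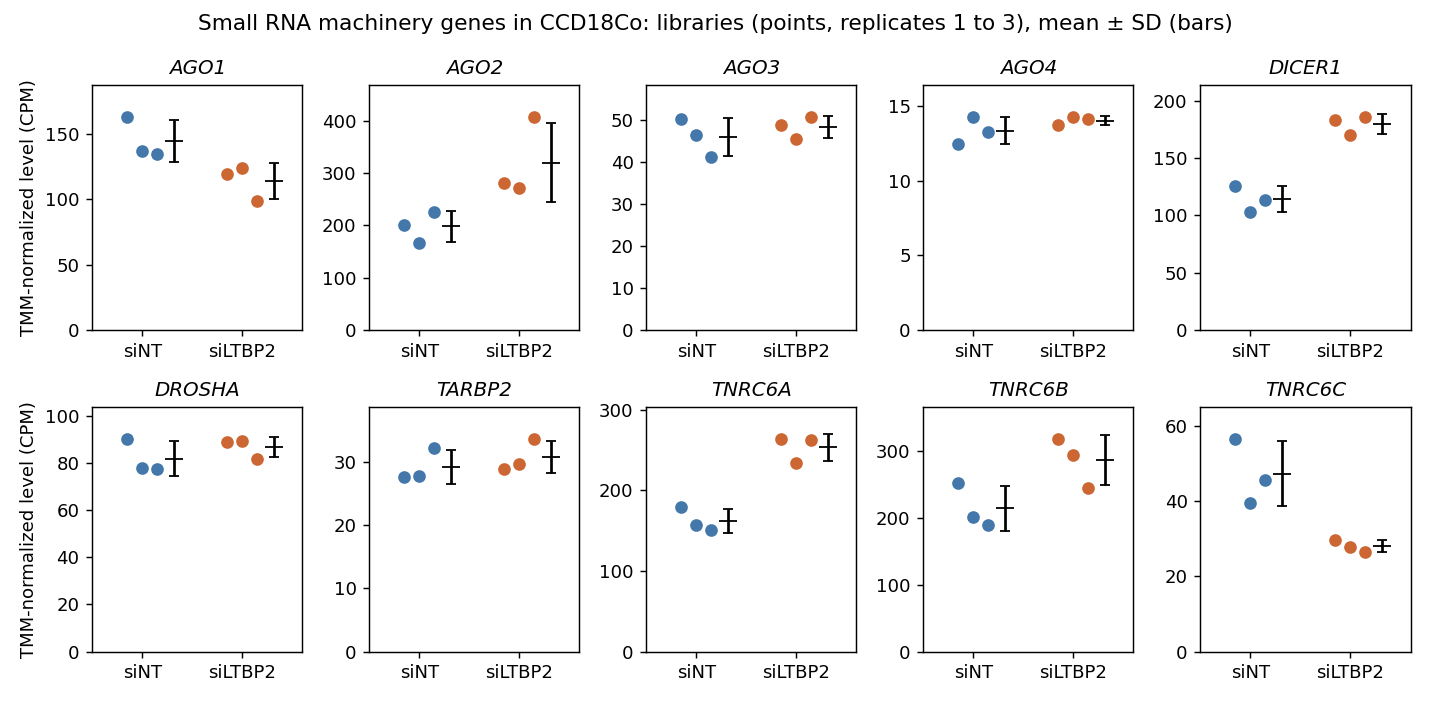
TMM-normalized level in CPM (vertical axes, each from 0) of the 10 genes in the siNT and siLTBP2 libraries, with 1 point per library in the order of replicates 1 to 3 and bars for the mean ± SD of 3 libraries. The siLTBP2 points of *DICER1* (170 to 186 CPM) and *TNRC6A* (234 to 264 CPM) sit above all siNT points, those of *TNRC6C* (26.5 to 29.8 CPM) sit below them, and those of *AGO3*, *AGO4*, *DROSHA* and *TARBP2* overlap.

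Among the Argonautes, *AGO2* rose. *AGO2* (chromosome 8, 140520156 to 140635633, minus strand, 19 exons in the canonical transcript) was at 201, 167 and 226 CPM in siNT replicates 1 to 3 and at 281, 272 and 408 CPM in siLTBP2 replicates 1 to 3. Every siLTBP2 library was above every siNT library, and siLTBP2 replicate 3 was the highest by far. The log2 fold change was 0.69 (standard error, SE, of 0.16, adjusted p = 0.0131), which is a level of 162% of siNT. The 3′ UTR of *AGO2* holds 1 copy of the word. Without siLTBP2 replicate 3 the log2 fold change was 0.48 with an adjusted p of 0.0168. Without siNT replicate 2, the lowest library, it was 0.58 and the adjusted p of 0.0642 no longer passed.

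*AGO1*, *AGO3* and *AGO4*, which lack a strong cutting activity and act mainly through TNRC6 proteins, lie side by side on the plus strand of chromosome 1, with *AGO4* from 35808016 to 35857890, *AGO1* from 35869808 to 35930532 and *AGO3* from 35930718 to 36072500. *AGO1* was at 163, 137 and 134 CPM in siNT and at 120, 124 and 98.3 CPM in siLTBP2. All 3 siLTBP2 libraries lay below all 3 siNT libraries, but the log2 fold change of -0.35 (SE 0.11, adjusted p = 0.0541) narrowly missed the threshold. With 1 library left out its adjusted p lay between 0.0603 and 0.172, and it passed under 5 of the 14 alternatives. *AGO3* had 50.4, 46.4 and 41.3 CPM in siNT and 48.8, 45.4 and 50.8 CPM in siLTBP2. *AGO4*, the least abundant of the 10 genes, had 12.5, 14.3 and 13.3 CPM in siNT and 13.7, 14.3 and 14.1 CPM in siLTBP2. In both genes the groups overlapped, and the 95% intervals of the log2 fold change ran from -0.14 to 0.29 for *AGO3* and from -0.16 to 0.31 for *AGO4*. Whether the neighbours in the cluster differed in their response was not tested.

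The make-up of the Argonaute mRNA pool can be read within each library, where the scaling between libraries plays no part. Per kilobase of exons, *AGO2* made up 44.8%, 43.2% and 51.8% of the summed level of the 4 Argonautes under siNT and 58.3%, 57.1% and 69.5% under siLTBP2. The share of *AGO1* was 38.5 ± 3.37% (SD, n = 3) in siNT and 25.4 ± 5.69% (SD, n = 3) in siLTBP2, and *AGO3* and *AGO4* together with it made up the rest. In siNT, *AGO2* and *AGO1* stood close, with a ratio of 1.09, 1.08 and 1.49 per kilobase, and in siLTBP2 the ratio was 2.08, 1.95 and 3.68. Since *AGO2* was higher and *AGO1* lower in every siLTBP2 library, this ratio had to differ and adds no support. The shares restate the same levels and add none either. The summed level of the 4 was 28.4, 24.4 and 27.6 CPM per kilobase in siNT and 30.4, 30.1 and 37.0 in siLTBP2, so the groups did not overlap in the sum either. As sums over chosen genes, these values carry no p.

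**Figure D2:**
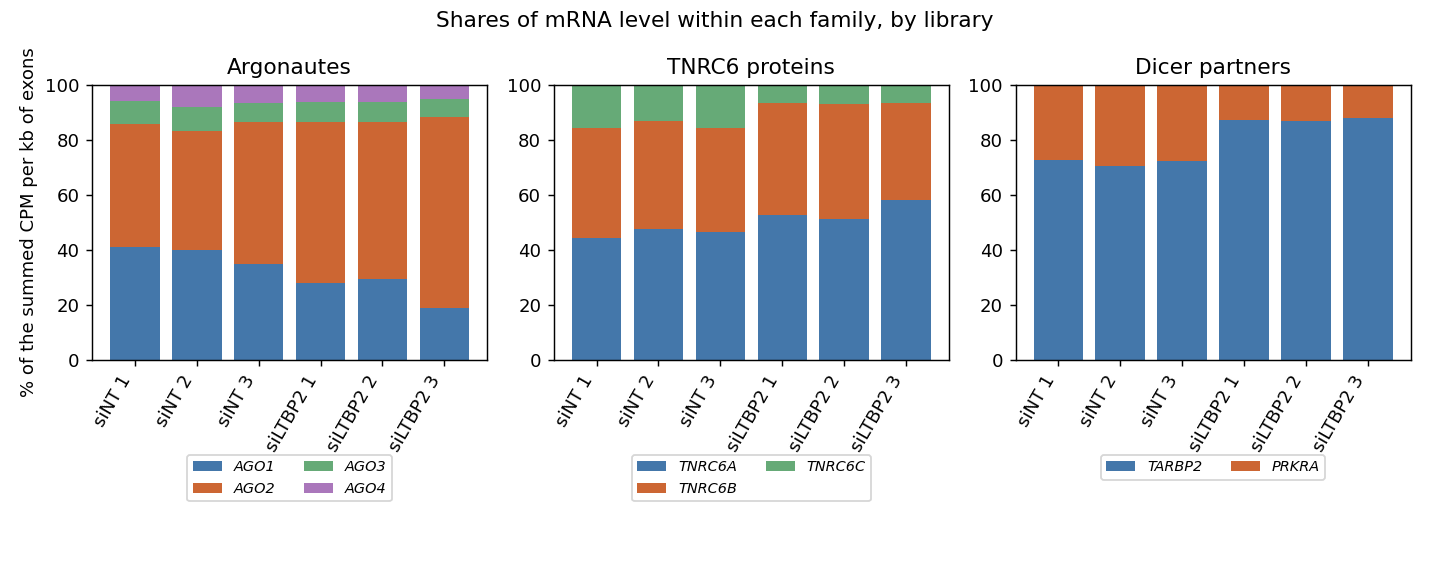
Share of each gene in the summed level of its family, in percent of CPM per kilobase of exons (vertical axis), for the 6 libraries (horizontal axis), with the 4 Argonautes, the 3 TNRC6 genes and the Dicer partners *TARBP2* and *PRKRA* in separate panels. The share of *AGO2* is larger in each siLTBP2 library than in each siNT library, that of *TNRC6C* drops from 14.9% to 6.67% on average, and that of *PRKRA* from 28.1% to 12.6%.

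The TNRC6 genes encode the scaffolds that link an Argonaute to the deadenylases, and their mRNAs moved in both directions. *TNRC6A* (chromosome 16, 24610209 to 24827632, plus strand) was at 179, 158 and 151 CPM in siNT and at 264, 234 and 262 CPM in siLTBP2, with no overlap between the groups. Its log2 fold change was 0.64 (SE 0.10, adjusted p = 0.00125), and it passed under all 14 alternatives, with an adjusted p of at most 0.0084. *TNRC6B* (chromosome 22, 40044817 to 40335808, plus strand) was at 251, 201 and 189 CPM in siNT and at 318, 294 and 245 CPM in siLTBP2. Here siLTBP2 replicate 3 was below siNT replicate 1, so the groups overlapped, and the log2 fold change of 0.42 (SE 0.13, adjusted p = 0.0452) lay just inside the threshold. The call was lost without siNT replicate 2 or 3 or siLTBP2 replicate 1, each with an adjusted p of 0.141, without siLTBP2 replicate 2 (0.135), and with upper-quartile scaling (0.0573). Its 3′ UTR holds 2 of the sites printed above.

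*TNRC6C* (chromosome 17, 77958703 to 78108822, plus strand) fell. It was at 56.7, 39.6 and 45.6 CPM in siNT and at 29.8, 27.9 and 26.5 CPM in siLTBP2, so that the highest siLTBP2 library was below the lowest siNT library. The log2 fold change was -0.75 (SE 0.13, adjusted p = 0.00253), a remaining level of 59.4% of siNT. Dropping any 1 library kept the call, at log2 fold changes between -0.86 and -0.61. Exons of *TNRC6C* overlap *TMC6* on the other strand, which had 145 reads over all 6 libraries and did not pass the test. Within the family, *TNRC6C* made up 15.6%, 13.3% and 15.7% of the summed level per kilobase in siNT and 6.59%, 6.84% and 6.57% in siLTBP2. The ratio of *TNRC6A* to *TNRC6C* per kilobase was 3.12 ± 0.40 (SD, n = 3) in siNT and 8.11 ± 0.68 (SD, n = 3) in siLTBP2. As both genes separated the groups, in opposite directions, this ratio had to differ and adds no support. The shares of the family restate the same levels and add none either.

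Of the nucleases, *DICER1* rose and *DROSHA* did not pass the test. *DICER1* (chromosome 14, 95086228 to 95158010, minus strand, 27 exons) was at 126, 103 and 114 CPM in siNT and at 183, 170 and 186 CPM in siLTBP2. The gap between the groups was wide compared with the spread within them, and the log2 fold change was 0.66 (SE 0.09, adjusted p = 0.000986), the smallest p among the 10 genes. With 1 library left out it stayed between 0.59 and 0.72 and passed each time. *DICER1-AS1*, whose exons overlap *DICER1* on the other strand, had 105 reads in all and did not pass. *DROSHA* (chromosome 5, 31400494 to 31532196, minus strand, 36 exons) was at 90.3, 77.9 and 77.3 CPM in siNT and at 88.8, 89.5 and 81.8 CPM in siLTBP2. Its groups overlapped, and the 95% interval of the log2 fold change ran from -0.12 to 0.28. The ratio of *DICER1* to *DROSHA* per kilobase was 0.49, 0.46 and 0.52 in siNT and 0.72, 0.67 and 0.80 in siLTBP2. That it lies below 1 depends on the exon unions, which are 22151 bases for *DICER1* and 7782 for *DROSHA*. By CPM *DICER1* was the higher, at 114 against 81.8 on average in siNT and 180 against 86.7 in siLTBP2.

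*TARBP2*, whose protein binds double-stranded RNA beside DICER1 and helps load Argonautes, was at 27.6, 27.8 and 32.3 CPM in siNT and at 28.9, 29.7 and 33.7 CPM in siLTBP2. The groups overlapped, replicate 3 was the highest in each of them, and the 95% interval of the log2 fold change ran from -0.15 to 0.31. Its paralog *PRKRA*, which encodes PACT, the other such partner of DICER1 and a known activator of the kinase PKR, fell. *PRKRA* was at 30.4, 34.1 and 36.4 CPM in siNT and at 12.3, 13.1 and 13.8 CPM in siLTBP2, a log2 fold change of -1.36 (SE 0.11, adjusted p = 4.0e-05) that also passed the stricter rule. *TARBP2* thus made up 71.9 ± 1.14% (SD, n = 3) of the summed level of the pair per kilobase in siNT and 87.4 ± 0.40% (SD, n = 3) in siLTBP2. By CPM without division by length its share averaged 46.5% in siNT and 70.1% in siLTBP2. The exon unions are 4090 bases for *TARBP2* and 12061 for *PRKRA*, so which gene leads in siNT depends on this length. The 3′ UTR of *PRKRA*, 683 bases long, holds 1 copy of the word printed above. Exons of *PRKRA* overlap the antisense genes *CHROMR* and *PJVK*, and without a known strand setting their reads cannot be told apart from its own. *CHROMR* averaged 21.4 CPM under siNT and 26.0 CPM under siLTBP2 (adjusted p = 0.153), and *PJVK* stayed below 1 CPM on average.

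**Figure D3:**
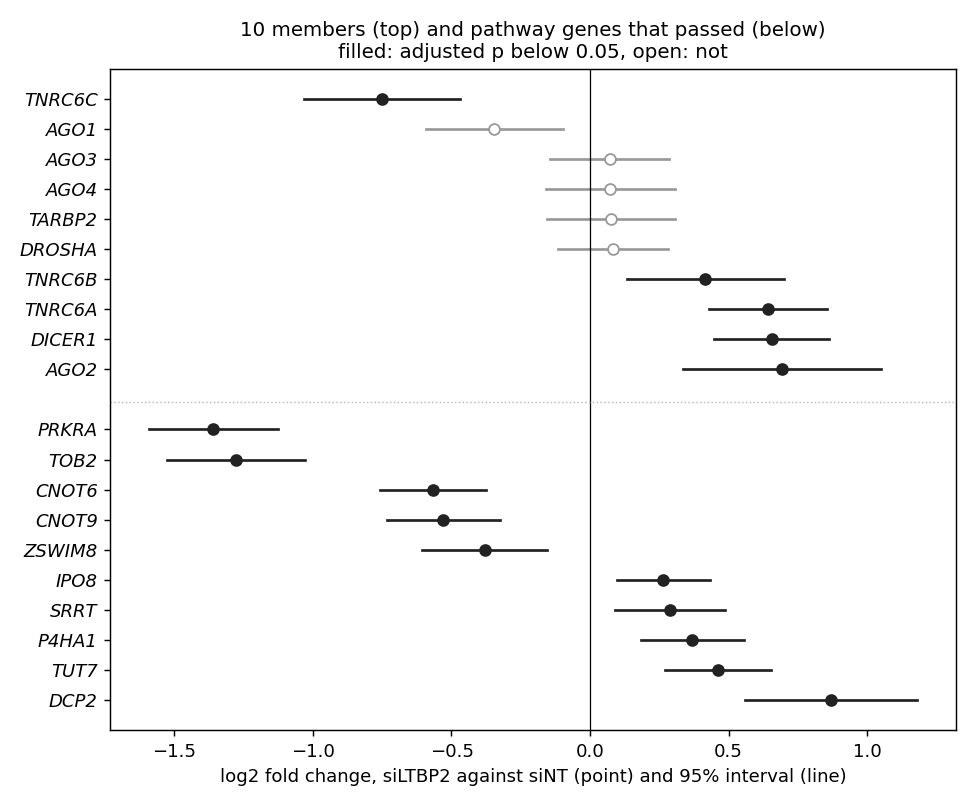
Log2 fold change of siLTBP2 against siNT (horizontal axis, points) with its unadjusted 95% interval (lines) for the 10 genes (top) and for the 10 partner genes with an adjusted p below 0.05 (below the dotted line), filled where the adjusted p was below 0.05. Among the 10 genes *TNRC6C* lies lowest at -0.75 and *AGO2* highest at 0.69, while the intervals of *AGO3*, *AGO4*, *TARBP2* and *DROSHA* span 0.

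Levels of different genes can be set side by side only per length. In siNT the order by CPM per kilobase of exons was *TNRC6A* (12.5 ± 1.13, SD, n = 3), *AGO2* (12.5 ± 1.89), *TNRC6B* (10.7 ± 1.65), *DROSHA* (10.5 ± 0.94), *AGO1* (10.3 ± 1.13), *TARBP2* (7.14 ± 0.65), *DICER1* (5.15 ± 0.51), *TNRC6C* (4.06 ± 0.74), *AGO3* (2.18 ± 0.22) and *AGO4* (1.80 ± 0.12). Neighbours from *TNRC6A* to *AGO1* overlapped in their siNT libraries, as did *DICER1* and *TNRC6C*, and the other neighbours did not overlap. In siLTBP2, *AGO2* (20.2 ± 4.79, SD, n = 3) and *TNRC6A* (19.5 ± 1.30) again led, and *DICER1* and *AGO1* both stood at 8.11 CPM per kilobase. The length is the union of all annotated exons, which is longer than most single transcripts, so it understates genes with many long isoforms, and for *DICER1* it is 22151 bases.

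The wider pathway was described with 5 lists of 79 genes, of which 70 were tested. Of these 70, 10 passed, 5 higher and 5 lower, which is 14.3% against 19.3% of all tested genes. Their median log2 fold change was 0.08, where that of all tested genes was -0.01. These lists too were chosen with earlier results known, so the shares are descriptions only. By list, the share that passed was 25% for processing and export, 15% for loading and turnover, 18.8% for deadenylation, 5.88% for decapping and repression and 0% for the PIWI list.

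In the list of processing and export, 3 of 12 tested genes passed, 2 higher and 1 lower (*PRKRA*). *TUT7*, a terminal uridylyltransferase that adds uridines to microRNA precursors, rose from 48.2 ± 3.15 to 66.4 ± 3.13 CPM (SD, n = 3), which is 0.46 on the log2 scale (SE 0.09, adjusted p = 0.00453). *SRRT*, which encodes ARS2, a link between the cap-binding complex and primary microRNA processing, had a log2 fold change of 0.29 (adjusted p = 0.0473) that lost its call whichever library was left out. *DGCR8*, the RNA-binding partner of DROSHA, whose own mRNA carries hairpins that DROSHA is known to cut, averaged 40.6 ± 2.63 CPM under siNT and 39.2 ± 4.81 CPM under siLTBP2 (SD, n = 3), with an adjusted p of 0.79. *XPO5*, the exporter of microRNA precursors, was at 71.9 ± 7.40 and 79.1 ± 3.90 CPM (SD, n = 3), with an adjusted p of 0.356.

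Among the genes of Argonaute loading and turnover, 3 of 20 tested passed, 2 higher and 1 lower. *P4HA1*, a subunit of the collagen prolyl hydroxylase that is also known to hydroxylate AGO2, rose from 115 ± 3.51 to 149 ± 10.7 CPM (SD, n = 3), with a log2 fold change of 0.37 (adjusted p = 0.0118) and an adjusted p of 0.0589 without siLTBP2 replicate 1. *IPO8*, an importin linked to Argonautes, rose by 0.26 on the log2 scale (adjusted p = 0.0341), and its call was lost without any 1 library but siLTBP2 replicate 3. *ZSWIM8*, a ubiquitin ligase adaptor that marks Argonautes for destruction when their microRNA is bound to certain targets, averaged 92.5 ± 9.48 CPM under siNT and 71.0 ± 6.34 CPM under siLTBP2 (SD, n = 3). Its log2 fold change was -0.38 (adjusted p = 0.0244), and the call was lost without siNT replicate 1 or 3 or siLTBP2 replicate 2 or 3, with adjusted p-values of up to 0.0875. The chaperone *HSP90AA1*, which holds Argonautes open for loading, averaged 1133 ± 140 CPM under siNT and 1419 ± 127 CPM under siLTBP2 (SD, n = 3), with an adjusted p of 0.0842.

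Downstream of the TNRC6 proteins, 3 of 16 tested deadenylation genes passed, which is 18.8% beside 19.3% of all tested genes. The 3 were lower in siLTBP2, as 9.51% of all tested genes were, and the median log2 fold change of the list was 0.07. *TOB2*, an adaptor that brings the CCR4-NOT deadenylase to mRNAs, was at 148, 111 and 119 CPM in siNT and at 55.5, 51.3 and 49.1 CPM in siLTBP2, a log2 fold change of -1.28 (SE 0.11, adjusted p = 7.5e-05) that passed the stricter rule. Its 3′ UTR holds the 3 copies of the word printed above. *CNOT6*, one of the catalytic subunits of CCR4-NOT, fell from 55.4 ± 3.45 to 37.4 ± 1.14 CPM (SD, n = 3), with a log2 fold change of -0.57 (SE 0.09, adjusted p = 0.00138), and carries 1 copy. *CNOT9*, the subunit with pockets for the tryptophans of TNRC6 proteins, fell from 100.3 ± 6.62 to 69.5 ± 5.99 CPM (SD, n = 3), with a log2 fold change of -0.53 (SE 0.09, adjusted p = 0.003), and has no copy in its 3′ UTR. *TOB2*, *CNOT6* and *CNOT9* passed under all 14 alternatives. The scaffold *CNOT1* was at 319 ± 32.8 and 347 ± 20.8 CPM (SD, n = 3) and did not pass (adjusted p = 0.438).

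Of 17 tested genes of decapping and translational repression, 1 passed. *DCP2*, the decapping enzyme, rose from 35.7, 41.5 and 37.1 CPM in siNT to 62.7, 59.0 and 87.1 CPM in siLTBP2, a log2 fold change of 0.87 (SE 0.14, adjusted p = 0.00197). Every siLTBP2 library was above every siNT library, and siLTBP2 replicate 3 was the highest, as in *AGO2*. Exons of *DCP2* overlap *MCC* on the other strand, and *MCC* had a log2 fold change of 0.01. The helicase *DDX6*, a central partner of the repression complex, was at 391 ± 43.8 and 359 ± 28.4 CPM (SD, n = 3), with an adjusted p of 0.468.

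**Figure D4:**
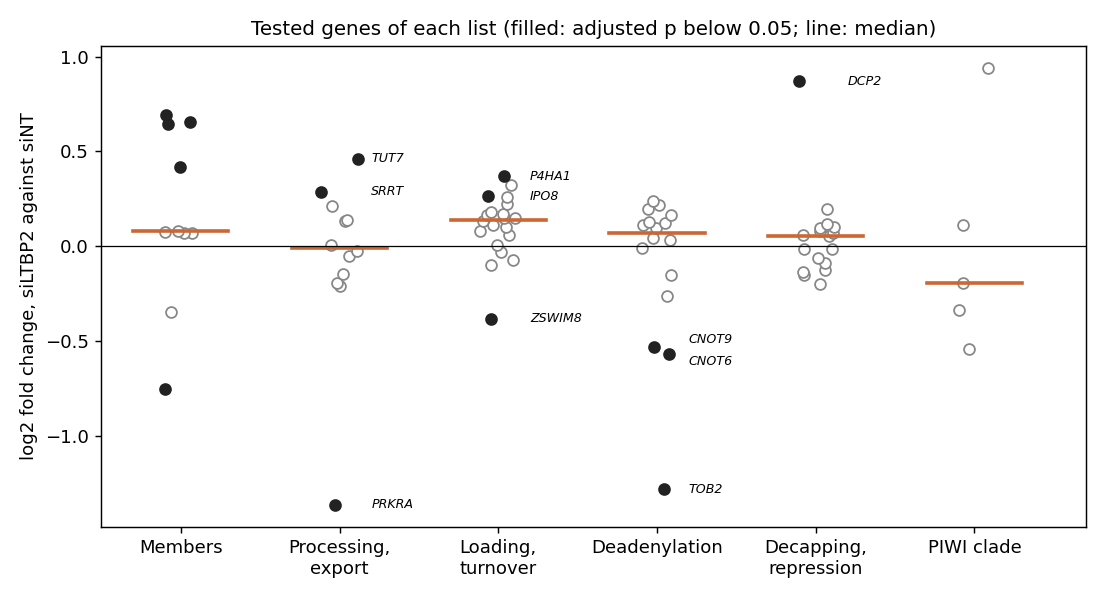
Log2 fold change of siLTBP2 against siNT (vertical axis) of every tested gene in the 10 members and in the 5 pathway lists (horizontal axis), filled where the adjusted p was below 0.05, with a line at the median of each list. Most genes of the pathway lists lie near 0, and *PRKRA* (-1.36), *TOB2* (-1.28) and *DCP2* (0.87) stand farthest from it among those that passed.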

How the data were processed

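Total RNA libraries were made with a stranded kit that depletes ribosomal RNA. The authors aligned the reads to GRCh38 with STAR (2.7.1a in the submitters' processing notes) and counted them with HTSeq (0.11.2), and the deposited values are whole-number counts without normalization. How HTSeq was set for strand is not given in the sources used here. There are 60663 genes in the table, 27067 of them at 0 in every library.

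Counts were filtered with filterByExpr, scaled by TMM and tested with edgeR 4.0.16 in R 4.3.3 (glmQLFit, glmQLFTest, two-sided, Benjamini-Hochberg adjusted over 16920 genes, no block). This replaced the likelihood ratio test of the study, which was run as an alternative, as was DESeq2 1.42.0. CPM values are TMM-normalized, and those of marker lists use total counts. Each standard error was taken as the size of the log2 fold change over the root of its F statistic. Exon lengths, overlaps and canonical 3′ UTRs came from GENCODE 44, whose gene starts match the table for 9 of the 10 genes (not *TNRC6C*).

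The members and lists were chosen with earlier results of these data known. Named were the 10 members, *LTBP2*, list genes with an adjusted p below 0.05 and overlapping genes. *DGCR8*, *XPO5*, *HSP90AA1*, *CNOT1* and *DDX6* were added for their roles, after their values were seen. Alternatives were other tests, scalings and filters, a replicate block and leaving out each library. The steps were tested on simulated data. The simulated libraries were drawn independently of each other, so they cannot bear on the choice of no block. Libraries of one group differed by more than sampling noise (chi-square per degree of freedom from 16.56 to 32.56).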

Additional observations from a re-analysis of the deposited data

How the results depend on the processing

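No direction of the 10 genes changed under any of the 14 alternatives. *AGO1* passed under the likelihood ratio test (-0.35), DESeq2 (-0.34), total-count scaling (-0.38) and no low-count filter (-0.36), which made 2 members lower in place of 1. *TNRC6B* lost its call with upper-quartile scaling (0.41), and with 1 library left out it lay between 0.33 and 0.54. *AGO2* lay between 0.48 and 0.80 with 1 library left out, and lost its call without siNT replicate 2. Leaving out 1 library gave 3 to 5 members that passed (2 to 4 higher, 1 lower), the lowest count without siNT replicate 2. It gave 2158 to 2781 genes in the whole table (1042 to 1449 higher), the fewest without siLTBP2 replicate 2. The share of *AGO2* in the summed Argonaute level per kilobase was 15.1 percentage points higher in siLTBP2, between 11.1 and 17.7 with 1 library left out. It restates the levels of the Argonaute genes and is not a separate result. The causes were not tested.

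Between libraries with the same replicate number, deviations from the group means had correlations of 0.298, 0.0832 and 0.428. Between libraries with different replicate numbers the correlations lay between -0.391 and 0.103, so those of replicates 1 and 3 exceeded all of them. The main test used no block because the correlation of replicate 2 was under 0.1. Whether libraries with the same number share a batch was not tested. With the replicate block, 6131 genes passed (3109 higher, 3022 lower), 21 of the pathway genes and 6 members, with *AGO1* at -0.35 and 2 members lower. Without the block 3261 genes passed. The quasi-likelihood test with the block gave an adjusted p of 0.000462 for *AGO1* and of 3.42e-05 for *TNRC6B*. The call of *AGO1* thus depends on this choice. *TNRC6B* passed either way, though narrowly without the block (adjusted p = 0.0452). Genes of few reads, such as those of the PIWI list, are limited by depth.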

Other observations

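The PIWI clade, *PIWIL1* to *PIWIL4*, is the germline branch of the Argonaute family and was nearly silent in these fibroblasts. *PIWIL1* and *PIWIL3* had 0 reads in every library, as did *DDX4* and *TDRD1*, which are on the list but not of the clade. *PIWIL2* had between 10 and 20 reads per library and *PIWIL4* between 9 and 25. *PIWIL4* had 9, 11 and 17 reads in siNT and 25, 18 and 25 in siLTBP2, which did not pass edgeR's quasi-likelihood test (adjusted p = 0.0743). *HENMT1*, the methyltransferase that protects PIWI-bound RNAs, was the most abundant of the list, averaging 5.94 ± 0.37 CPM under siNT and 6.41 ± 0.64 CPM under siLTBP2 (SD, n = 3). Also outside the clade, *PLD6* averaged 2.61 CPM under siNT and 2.06 CPM under siLTBP2, and *MOV10L1* 2.16 and 1.49 CPM. Of the 5 tested genes of the list, 0 passed by the quasi-likelihood test.

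Libraries of this kind do not measure mature microRNAs. The table lists 1877 microRNA genes, of which 698 had a read in any library and 44 were tested. Of these 44, 3 passed at an adjusted p below 0.05, which is 6.82% beside 19.3% of all tested genes. *MIR3605* and *MIR616* were higher and *MIR490* lower, named after their values were seen. *MIR3605* had 10, 17 and 14 reads in siNT and 33, 28 and 38 in siLTBP2, *MIR616* had 5, 5 and 7 and then 12, 13 and 14, and *MIR490* had 26, 37 and 39 and then 12, 14 and 20. *MIR616* lay under the low-count filter in every siNT library and entered the test only through siLTBP2, so it had to differ and its call supports nothing. Such reads can come from the longer transcripts that hold the hairpins.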
